A study of Homo sapiens with 16 samples.

Results

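The MYC network was followed here through 10 genes: the MYC proteins MYC, MYCN and MYCL, their partner MAX, and the antagonists MXD1, MXI1 (also known as MXD2), MXD3, MXD4, MNT and MGA. They were taken by gene symbol and not by any measured value. All 10 were among the 35993 gene symbols with counts and among the 21297 genes that passed a filter on low counts. MYCN passed it through the RT112 libraries and the treated TCCSUP libraries, where it had 14 to 25 counts, and had at most 8 counts in any other library.

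RNA sequencing covered 4 established cell lines derived from human bladder cancer, namely 253J, J82, RT112 and TCCSUP, all labelled WT in genotype. Cells received CM-1758, a histone deacetylase (HDAC) inhibitor, for 48 h at the inhibitory concentration (IC50) measured for their own line, so the dose differed between lines, and control cells received the vehicle, 0.01% DMSO. Each of the 8 groups held 2 libraries, which the study describes as independent biological replicates, 16 in all. TCCSUP was grown in EMEM and the other lines in DMEM, so that line, medium and dose cannot be told apart.

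Total counts ran from 22506431 to 32537104 per library. The level of a gene is given as CPM, its count relative to the library size as scaled by the TMM method of edgeR, and the error as the SD of n = 2 libraries. Calls of higher or lower levels rest on an adjusted p under 0.05 (Benjamini-Hochberg over all 21297 genes) in the quasi-likelihood test of edgeR. Since RNA came from whole cultures, fewer cells with a transcript and less transcript per cell cannot be told apart. Of 17 urothelial and epithelial markers, 16 were above 1 CPM in control RT112, 10 in TCCSUP, 8 in J82 and 7 in 253J, and UPK3A, a urothelial plaque protein, had no count in any control library. The summed CPM of those markers was lower in the treated libraries of 253J (1880 to 2372 against 3193 to 4344), RT112 (6311 to 7088 against 8245 to 8647) and TCCSUP (519 to 603 against 1339 to 1460), and overlapped in J82 (6973 to 7893 against 5970 to 8103). Of 10 markers of leukocytes, endothelium and fibroblasts, the T cell gene CD3E had no count in control libraries. The summed CPM of these 10 was 6.97 to 8.58 in control and 30.1 to 41.0 in treated 253J, 128 to 178 and 165 to 208 in J82, 1338 to 1372 and 820.4 to 892.6 in RT112, and 1382 to 1469 and 254 to 278 in TCCSUP. In the control libraries of RT112 and TCCSUP most of it came from the matrix gene LUM (means of 1347 and 1025 CPM). The part of these shifts in the results on the network was not tested.

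MYC proteins are basic helix-loop-helix leucine zipper factors that bind E-box DNA as a pair with MAX and raise transcription of genes for ribosome assembly, nucleotide synthesis and the cell cycle. The MXD proteins and MNT compete for MAX and the same E-boxes and recruit SIN3 with histone deacetylases, so that the network holds both sides of a switch between growth and differentiation. MGA also pairs with MAX and carries in addition a T-box DNA-binding domain, and it is the scaffold of the Polycomb complex PRC1.6, which silences germline genes.

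Windows of 250 bases before each annotated start were taken from RefSeq on GRCh38.p14 for 9 of the 10 members. MYC had no entry and was not searched. The windows were searched on both strands for the E-box CACGTG, to which MAX pairs bind, and the GC box GGGCGG. The E-box was found in 6.34% of all 35116 such windows and the GC box in 42.6%. Among the 9 members searched, a CACGTG was in the windows of MXD4 (238 bases before the start) and MNT (193 bases before). The stretches shown are those of MXI1 and MAX, the members called higher in every line, at the second annotated start of each, and the E-box bearing stretches of MXD4 and MNT. Those of MXI1 and MAX hold GC boxes and no E-box. The window of the first MAX start holds no GC box and lies over exons for 230 of its 250 bases. GC boxes were not particular to MXI1 and MAX, being also in windows of MYCL, MYCN, MXD1, MXD3, MXD4, MNT and MGA. Capitals mark a CACGTG, or a GGGCGG read on either strand (CCGCCC where it lies on the other one). For MXD4 and MNT the window was cut to its longest run outside GENCODE v29 exons, 65 and 192 bases. Their whole windows hold 1 and 4 GC boxes, not all of them in the part shown. The stretches lie at chr10:110209981-110210230 on the plus strand (MXI1), chr14:65101685-65101934 on the minus strand (MAX), chr4:2262295-2262359 on the minus strand (MXD4) and chr17:2401119-2401310 on the minus strand (MNT).
MXI1: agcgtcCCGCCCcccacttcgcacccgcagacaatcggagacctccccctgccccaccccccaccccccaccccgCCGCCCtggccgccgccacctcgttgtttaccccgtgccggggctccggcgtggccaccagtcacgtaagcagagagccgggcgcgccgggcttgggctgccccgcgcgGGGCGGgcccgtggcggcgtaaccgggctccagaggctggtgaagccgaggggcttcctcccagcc
MAX: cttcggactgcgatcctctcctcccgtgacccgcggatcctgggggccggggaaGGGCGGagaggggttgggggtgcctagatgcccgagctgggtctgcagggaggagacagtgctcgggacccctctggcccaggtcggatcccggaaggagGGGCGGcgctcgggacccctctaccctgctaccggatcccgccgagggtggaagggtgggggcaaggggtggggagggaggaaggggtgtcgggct
MXD4: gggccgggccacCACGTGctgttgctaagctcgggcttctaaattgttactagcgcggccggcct
MNT: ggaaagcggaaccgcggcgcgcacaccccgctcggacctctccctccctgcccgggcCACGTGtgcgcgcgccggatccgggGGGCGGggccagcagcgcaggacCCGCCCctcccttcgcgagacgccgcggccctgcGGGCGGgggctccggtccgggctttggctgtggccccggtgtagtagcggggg
A match describes letters in a window and does not show that a factor binds there.

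Upon CM-1758 treatment, MAX and MXI1 rose in all 4 cell lines, MYC fell in 253J and RT112, and MYCL rose in 253J, J82 and TCCSUP and fell in RT112. In 253J, 8 of the 10 members were called, 5 higher and 3 lower, where 51.3% of all tested genes were called (28.8% higher and 22.4% lower). J82 had 4 called members, 3 higher and 1 lower, against 42.5% of all genes (24% higher and 18.5% lower). RT112 had 5, 3 higher and 2 lower, against 47.7% (27.4% higher and 20.2% lower). All 7 calls in TCCSUP were higher, against 54.1% of all genes (32% higher and 22.1% lower); 0 were lower by edgeR or by DESeq2, 1 (MYC) was lower at an unadjusted p under 0.05, and the same gene was lower when edgeR was run on TCCSUP alone. With library size alone as the scale, the calls were 5 higher and 1 lower in 253J and 4 higher and 0 lower in J82, a scale that moved the median of all tested genes up by 0.27 in 253J, 0.15 in both J82 and RT112 and 0.31 in TCCSUP (log2). On the TMM scale the 10 members had a median log2 fold change of 1.22 in TCCSUP and 0.95 in 253J, against 0.20 and 0.10 over all tested genes, and of 0.29 in J82 and 0.27 in RT112, against 0.05 and 0.12.

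Large changes were few. At a log2 fold change over 2 either way and an adjusted p under 0.01, 1 member was called by edgeR in 253J (MXD1), 0 in J82 and RT112, and 1 in TCCSUP (MYCN), where 12.9%, 10.1%, 12.8% and 17.5% of all genes passed. The treated and control libraries did not overlap for 9 members in TCCSUP (78.5% of all tested genes), 8 in RT112 (74.3%), 8 in 253J (73%) and 7 in J82 (62.7%).

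**Figure D1:**
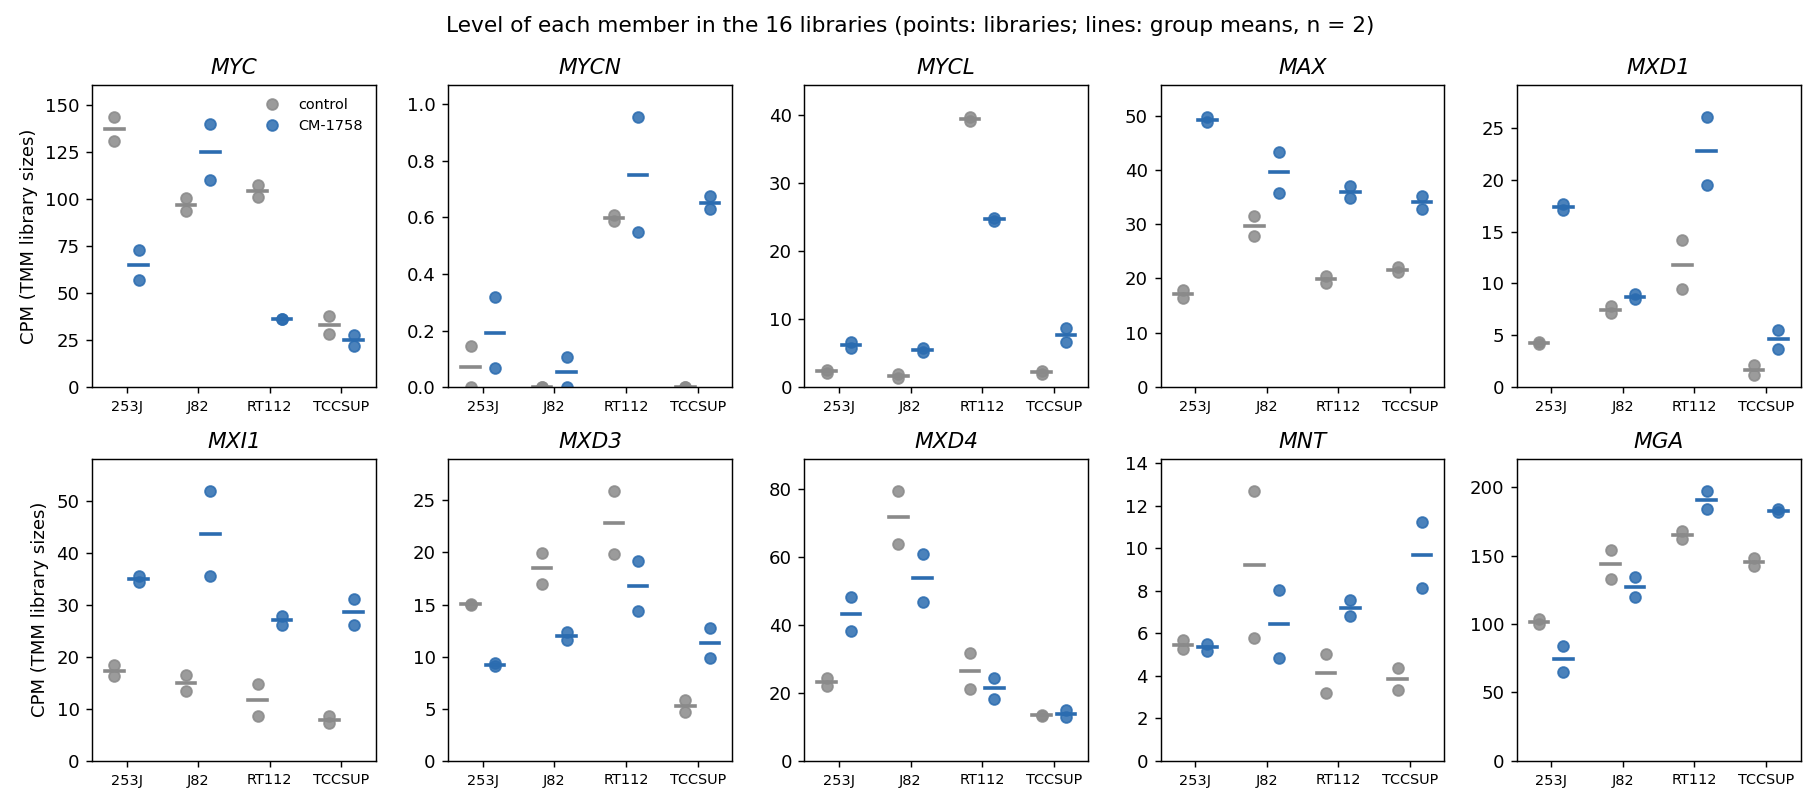
CPM of each member (vertical axes from 0) in the 2 control (grey) and 2 CM-1758 (blue) libraries of 253J, J82, RT112 and TCCSUP; points are libraries and short lines group means. MAX and MXI1 sit higher with CM-1758 in every line, MYC drops in 253J and RT112, and MYCL is highest in RT112, where it drops.

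MYC, the most widely expressed member of the oncogenic trio, fell in 253J and RT112. In 253J its CPM was 144 and 131 in the control libraries and 72.8 and 57.3 in the treated ones, a log2 fold change of -1.08 (SE 0.17, edgeR adjusted p = 0.000108). The drop was larger in RT112, from 108 and 101 to 36.5 and 36.0 CPM, a log2 fold change of -1.53 (SE 0.18, edgeR adjusted p = 7.73e-06). In both lines each treated library lay below both control libraries.

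J82 went the other way without passing the test: MYC was at 101 and 93.5 CPM in control and 110.2 and 140.3 CPM with CM-1758, a log2 fold change of 0.37 (SE 0.17, edgeR adjusted p = 0.103). The treated J82 libraries were both above the control ones. Other settings gave adjusted p from 0.0237 to 0.198 for MYC in J82, under 0.05 with RLE scaling, library size alone, a filter of 10 counts in every library and DESeq2 over all lines. Without treated replicate 1 the log2 fold change was 0.61 (edgeR adjusted p = 0.0243), and leaving out other libraries raised that p to as much as 0.548.

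TCCSUP had the lowest MYC level before treatment, 28.5 and 37.8 CPM, and 27.9 and 22.0 CPM afterwards. Its log2 fold change of -0.41 (SE 0.18) missed the threshold (edgeR adjusted p = 0.063), although both treated libraries were below both control ones. It passed with edgeR on TCCSUP alone (adjusted p = 0.0345, other settings up to 0.641). Leaving out TCCSUP control replicate 1 (-0.61, adjusted p = 0.0289) or treated replicate 1 (-0.60, adjusted p = 0.0405), or J82 treated replicate 1 (-0.43, adjusted p = 0.0440), also brought it under 0.05, with up to 0.476 for other libraries. The effect on MYC differed between the lines (edgeR interaction adjusted p = 9.03e-05), as did that of 51.9% of all tested genes. Next to MYC lies the long noncoding RNA gene PVT1, which fell in 253J (26.8 ± 0.984 to 8.84 ± 0.341 CPM, log2 fold change -1.598, edgeR adjusted p = 2.61e-06) and in TCCSUP (13.2 ± 0.189 to 8.75 ± 2.26 CPM, log2 fold change -0.59, edgeR adjusted p = 0.0104). The TCCSUP call of PVT1 was lost with library size alone (-0.28). In J82 and RT112, PVT1 had log2 fold changes of -0.07 and 0.15 and was not called.

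MYCL, the MYC paralog first known from small cell lung cancer, was high in RT112 and low elsewhere. The control RT112 libraries held 39.7 and 39.2 CPM, and CM-1758 lowered this to 24.9 and 24.5 CPM, a log2 fold change of -0.68 (SE 0.19, edgeR adjusted p = 0.00779). In 253J the level rose from 2.14 and 2.57 to 5.70 and 6.68 CPM, a log2 fold change of 1.40 (SE 0.22, edgeR adjusted p = 7.39e-05). J82 rose from 1.41 and 2.00 to 5.12 and 5.72 CPM, a log2 fold change of 1.67 (SE 0.23, edgeR adjusted p = 3.57e-05).

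In TCCSUP, MYCL rose from 1.98 and 2.37 to 8.68 and 6.57 CPM, a log2 fold change of 1.81 (SE 0.22, edgeR adjusted p = 7.85e-06). Treated and control libraries were apart in all 4 lines, so MYCL was the member whose direction split 3 lines from 1 with a call in each. The interaction had an edgeR adjusted p of 1.17e-05. Even after these changes, RT112 held more MYCL than any other line, 24.7 ± 0.258 CPM against 5.42 ± 0.425 to 7.63 ± 1.49 CPM in the others with CM-1758.

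MYCN, the MYC paralog of neural progenitors and neuroblastoma, stood near the limit of detection. The 2 control libraries of TCCSUP had no MYCN count and the treated ones had 18 and 16, which is at least 5.58-fold higher when control is set at 3 counts per library (edgeR adjusted p = 0.00376). Counts of MYCNOS, the gene antisense to MYCN, were 0 in all TCCSUP libraries. In RT112 there were 18 and 18 counts in control and 14 and 25 with CM-1758 (log2 fold change 0.32, SE 0.80, edgeR adjusted p = 0.788), and these libraries overlapped.

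253J had 4 and 0 MYCN counts in control and 8 and 2 with CM-1758, with an edgeR adjusted p of 0.406. J82 had no count in control and 3 and 0 with CM-1758, both groups at or under 3 counts, so no fold is given. MYCN was thus called in TCCSUP and not in the other lines, but the test of the difference between lines missed the threshold (edgeR interaction adjusted p = 0.0626). It passed without 253J control replicate 2 (0.0398) or 3 (0.0444) or J82 treated replicate 3 (0.0427).

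MAX, the partner shared by the other members, rose in all 4 lines, as did 6.69% of all tested genes. 253J showed the largest increase, from 16.4 and 17.97 to 49.7 and 48.7 CPM, a log2 fold change of 1.52 (SE 0.14, edgeR adjusted p = 4.35e-07). RT112 rose from 20.5 and 19.1 to 37.1 and 34.8 CPM (log2 fold change 0.86, SE 0.13, edgeR adjusted p = 0.000109). TCCSUP rose from 21.1 and 22.2 to 32.8 and 35.3 CPM (log2 fold change 0.65, SE 0.13, edgeR adjusted p = 0.000835).

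The smallest MAX change was that of J82, from 31.5 and 27.8 to 35.8 and 43.3 CPM, a log2 fold change of 0.42 (SE 0.13, edgeR adjusted p = 0.0191). No line had overlapping groups. The J82 call was lost without control replicate 3 (0.33, adjusted p = 0.122) or treated replicate 3 (0.27, adjusted p = 0.199), with 0.00444 as the lowest adjusted p when other libraries were left out. It was also lost with J82 analysed alone in edgeR (adjusted p = 0.133) or DESeq2 (0.173), against 0.000568 at the lowest. The increase differed between lines (edgeR interaction adjusted p = 0.00108).

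**Figure D2:**
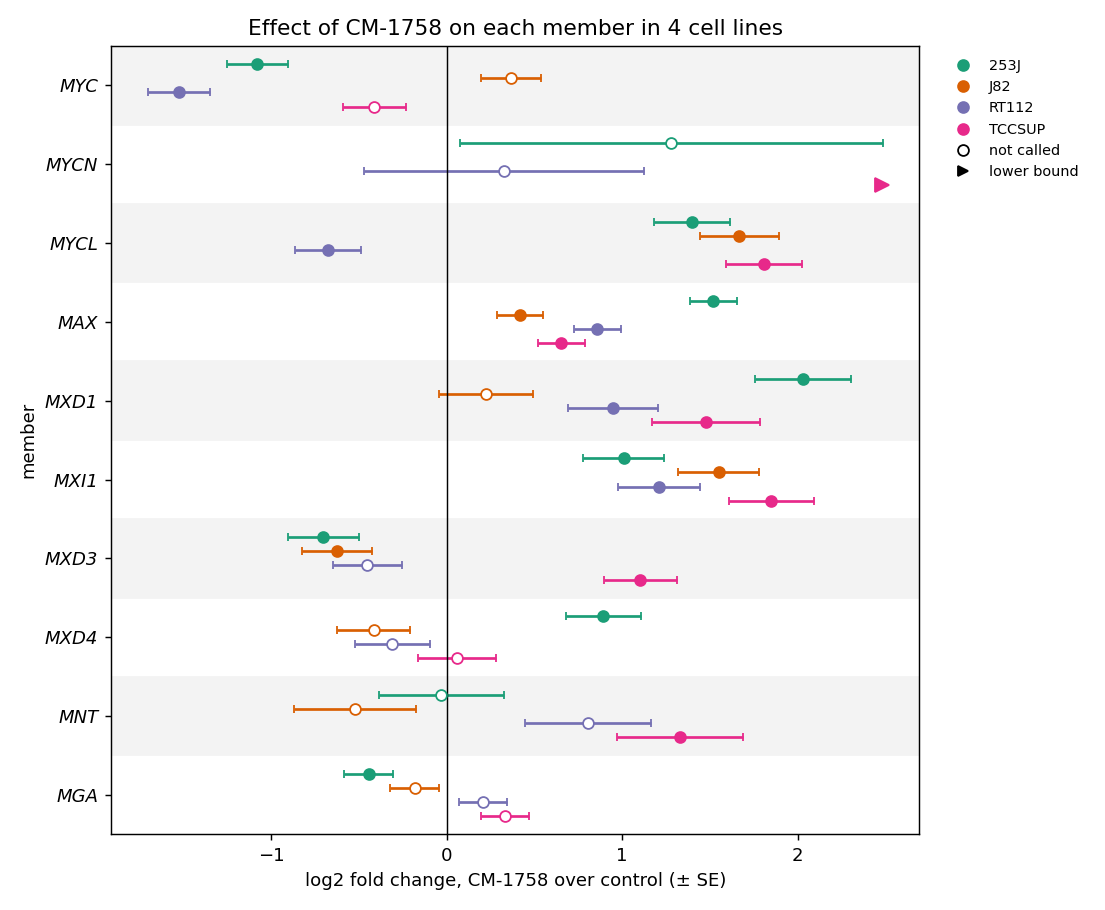
Log2 fold change of CM-1758 over control (horizontal axis, ± SE) for each member in each line; filled points were called at an edgeR adjusted p under 0.05, open points were not, and the arrowhead is a lower bound for MYCN in TCCSUP. MYCN in J82 is left out, both groups being at or under 3 counts. MAX and MXI1 lie to the right of 0 in 4 lines, MYCL and MXD3 have calls on both sides, and MYC, MXD4, MNT and MGA have values on both sides.

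MXI1, a MAX partner that recruits SIN3 and was first isolated as a MAX interactor, was the antagonist that rose in every line. Its level in 253J went from 16.3 and 18.4 to 35.5 and 34.3 CPM, a log2 fold change of 1.01 (SE 0.23, edgeR adjusted p = 0.00184). J82 went from 13.4 and 16.4 to 35.5 and 51.9 CPM, a log2 fold change of 1.55 (SE 0.23, edgeR adjusted p = 8.71e-05). The 2 treated J82 libraries were further apart than those of the other lines, with an SD of 11.6 CPM.

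RT112 rose in MXI1 from 14.8 and 8.57 to 27.9 and 26.2 CPM, a log2 fold change of 1.21 (SE 0.23, edgeR adjusted p = 0.000632). TCCSUP had the lowest starting level and the largest change, from 7.20 and 8.65 to 26.1 and 31.1 CPM (log2 fold change 1.85, SE 0.24, edgeR adjusted p = 1.57e-05). All treated libraries of a line exceeded its control libraries. The 4 effects were not shown to differ (edgeR interaction adjusted p = 0.146), except when RT112 control replicate 2 was left out (0.0325). At the threshold of 0.05, MXI1 kept its call in each line under the other scalings, filter and models and with any library left out, with adjusted p of at most 0.0237, but no line passed the limit of a log2 fold change over 2.

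MXD1, the founding MXD protein, which is known to rise as cells differentiate, increased in 253J, RT112 and TCCSUP. In 253J it went from 4.13 and 4.37 to 17.0 and 17.7 CPM, a log2 fold change of 2.03 (SE 0.28, edgeR adjusted p = 2.11e-05), the largest called change of any member above the floor. TCCSUP went from 1.15 and 2.14 to 5.50 and 3.70 CPM (log2 fold change 1.48, SE 0.31, edgeR adjusted p = 0.000948).

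RT112, with the highest MXD1 level before treatment, went from 9.42 and 14.2 to 19.4 and 26.0 CPM (log2 fold change 0.95, SE 0.26, edgeR adjusted p = 0.0073). This call was lost without control replicate 1 (0.68, adjusted p = 0.103) or treated replicate 2 (0.72, adjusted p = 0.0857), with 0.00446 as the lowest p over the other libraries. J82 had 7.79 and 7.16 CPM in control and 8.45 and 9.01 CPM with CM-1758 (log2 fold change 0.22, SE 0.27, edgeR adjusted p = 0.542). The treated J82 libraries were above the control ones, by less than the model's spread. The effect differed between lines (edgeR interaction adjusted p = 0.00611).

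MXD3, the MXD protein linked to proliferating cells, went in opposite directions. It fell in 253J, from 15.1 and 14.98 to 9.07 and 9.42 CPM (log2 fold change -0.70, SE 0.20, edgeR adjusted p = 0.00848). It fell in J82, from 17.0 and 20.0 to 12.4 and 11.6 CPM (log2 fold change -0.62, SE 0.20, edgeR adjusted p = 0.0185). In TCCSUP it rose from 5.86 and 4.67 to 9.84 and 12.8 CPM, a log2 fold change of 1.10 (SE 0.21, edgeR adjusted p = 0.000442).

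The RT112 libraries had 25.9 and 19.9 CPM of MXD3 in control and 19.1 and 14.3 CPM with CM-1758, with a log2 fold change of -0.45 (SE 0.19) that was not called (edgeR adjusted p = 0.0691). No line overlapped between groups. TCCSUP thus started lowest for MXD3 and ended within the range of the other treated lines, 9.24 ± 0.243 to 16.7 ± 3.39 CPM. The effect differed between lines (edgeR interaction adjusted p = 0.000301). The J82 call was the least stable: it was lost without control replicate 3 (-0.50, adjusted p = 0.113), treated replicate 1 (-0.59, 0.0773) or treated replicate 3 (-0.58, 0.095), with library size alone (0.0618) and with J82 alone in edgeR (0.0651) or DESeq2 (0.0814), the lowest adjusted p of all being 0.0165. In edgeR, library size alone (-0.43, adjusted p = 0.0797) and a block for replicate number (-0.67, adjusted p = 0.0657) also ended the 253J call, with other settings from 0.00315. In RT112 leaving out control replicate 2 (-0.63, adjusted p = 0.045) or treated replicate 1 (-0.68, adjusted p = 0.0370) brought MXD3 under the threshold, others giving up to 0.448.

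MXD4, the remaining MXD protein, rose in 253J alone among the calls, from 22.0 and 24.5 to 48.2 and 38.1 CPM (log2 fold change 0.89, SE 0.21, edgeR adjusted p = 0.00257). In control, J82 held far more MXD4 than the other lines, at 63.9 and 79.4 CPM. With CM-1758 it was at 46.7 and 60.9 CPM, which overlapped the treated 253J libraries. The J82 groups did not overlap each other, but there was no call (log2 fold change -0.41, SE 0.21, edgeR adjusted p = 0.124). With a block for replicate number, MXD4 passed in J82 (-0.42, edgeR adjusted p = 0.0152). The groups overlapped in RT112 (31.9 and 21.0 against 24.5 and 18.2 CPM) and in TCCSUP (13.2 and 13.6 against 14.9 and 12.9 CPM). The difference between lines passed the test (edgeR interaction adjusted p = 0.00683). Of the pair of members with a CACGTG in the stretch shown above, MXD4 was therefore called in 253J, and MNT in TCCSUP.

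MNT, the widely expressed MAX partner that is thought to set the background against which MYC acts, rose in TCCSUP from 3.32 and 4.37 to 8.12 and 11.2 CPM (log2 fold change 1.33, SE 0.36, edgeR adjusted p = 0.00609). That call was lost without control replicate 1 (1.14, adjusted p = 0.0597) or treated replicate 2 (1.08, adjusted p = 0.056), with 0.00128 as the lowest p over the other libraries. In RT112 MNT was at 3.17 and 5.05 CPM in control and 6.81 and 7.55 CPM with CM-1758, apart but not called (log2 fold change 0.81, SE 0.36, edgeR adjusted p = 0.0768). It passed in edgeR with 10 counts required in every library (0.0323) and with a block for replicate number (0.0122). With RT112 alone it passed in edgeR (0.0262) and DESeq2 (0.0284), over a range of 0.0122 to 0.092 for all settings. Leaving out J82 control replicate 1 (0.0326) or 3 (0.031) also brought it under 0.05, with up to 0.395 for other libraries.

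In 253J the MNT groups overlapped, at 5.25 and 5.67 against 5.19 and 5.50 CPM, with a log2 fold change of -0.03 (SE 0.36) whose sign depended on the scaling. The control J82 libraries were far apart, 12.7 and 5.78 CPM, against 8.02 and 4.84 CPM with CM-1758, and the groups overlapped. The J82 log2 fold change of -0.52 (SE 0.35, edgeR adjusted p = 0.251) became -0.98 (adjusted p = 0.0306) without control replicate 3 and 0.15 (adjusted p = 0.816) without control replicate 1, so that 1 control library decided it. The difference between lines had an edgeR interaction adjusted p of 0.0228, lost without J82 treated replicate 3 (0.0547), TCCSUP control replicate 1 (0.0673) or TCCSUP treated replicate 2 (0.0708).

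For MGA, 1 line had a call. It fell in 253J, from 103 and 99.7 to 65.0 and 84.1 CPM (log2 fold change -0.45, SE 0.14, edgeR adjusted p = 0.015). The call was lost without control replicate 2 (-0.42) or treated replicate 1 (-0.27). It was also lost in edgeR with library size alone (-0.17, adjusted p = 0.342) and with a block for replicate number (-0.25, adjusted p = 0.196), the lowest p over all settings being 0.00469. TCCSUP had 148 and 142 CPM in control and 184 and 182 CPM with CM-1758, a log2 fold change of 0.33 (SE 0.14) that missed the threshold (edgeR adjusted p = 0.0559).

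In TCCSUP, the groups were apart for MGA, and most other settings brought the p under 0.05, down to 0.00167 with library size alone. Leaving out either treated library of 253J, or either control library of J82, moved it to between 0.0417 and 0.0467. RT112 had 168 and 162 CPM in control and 184 and 197 CPM with CM-1758, apart and not called (log2 fold change 0.21, edgeR adjusted p = 0.238). J82 had 154 and 133 CPM against 134 and 119.5 CPM, which overlapped (log2 fold change -0.18, edgeR adjusted p = 0.321). The effect on MGA differed between lines (edgeR interaction adjusted p = 0.0128).

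Between members, levels were compared per kb of exon, with the merged exon length of each gene in GENCODE v29. In control cells MYC was the most abundant member by this measure in all 4 lines, from 11.1 ± 2.19 CPM per kb in TCCSUP to 45.7 ± 2.999 in 253J. In TCCSUP the lead over MGA (9.57 ± 0.263) was within the SD of MYC. MGA had 6.69 ± 0.173 to 10.9 ± 0.253, MAX 4.19 ± 0.275 to 7.23 ± 0.622, and MXD4 3.30 ± 0.0658 to 17.7 ± 2.70 CPM per kb. MXD1 and MNT were low throughout control, at most 2.10 ± 0.598 and 1.85 ± 0.978 CPM per kb.

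The control lines differed from each other in many members. Of the 60 combinations of a member and a pair of lines, 36 passed the edgeR test, where 52% of all gene and pair combinations did (53.1% for 253J and J82, 54.3% for 253J and RT112, 53.1% for 253J and TCCSUP, 52.1% for J82 and RT112, 48% for J82 and TCCSUP, 51.5% for RT112 and TCCSUP). MXD1 differed in all 6 pairs, with RT112 above J82 (adjusted p = 0.049), J82 above 253J (0.0214) and 253J above TCCSUP (0.00163). MXI1 and MNT differed in 2 pairs each, and no pair of neighbours in their order of levels passed the test.

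TCCSUP was the lowest line, with a step that passed the test, for MYC, MXD1, MXD3 and MXD4. For MYC the order was 253J, RT112, J82 and TCCSUP, where neighbours were not told apart down to J82 (edgeR adjusted p = 0.0651 and 0.683) and the step from J82 to TCCSUP was 1.55 on the log2 scale (adjusted p = 4.09e-06). MXD3 had the same kind of step below 253J, of 1.51 (adjusted p = 1.87e-05). RT112 stood alone for MYCL, 4.07 above 253J on the log2 scale (adjusted p = 5.63e-10), while 253J, TCCSUP and J82 were not told apart (0.756 and 0.255). J82 stood alone for MXD4, 1.44 above RT112 (adjusted p = 3.7e-05), and led for MAX, 0.45 above TCCSUP (adjusted p = 0.0111). For MGA, 253J was the lowest, 0.50 below J82 (adjusted p = 0.0068), and the other 3 neighbours were not told apart (0.295 and 1).

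**Figure D3:**
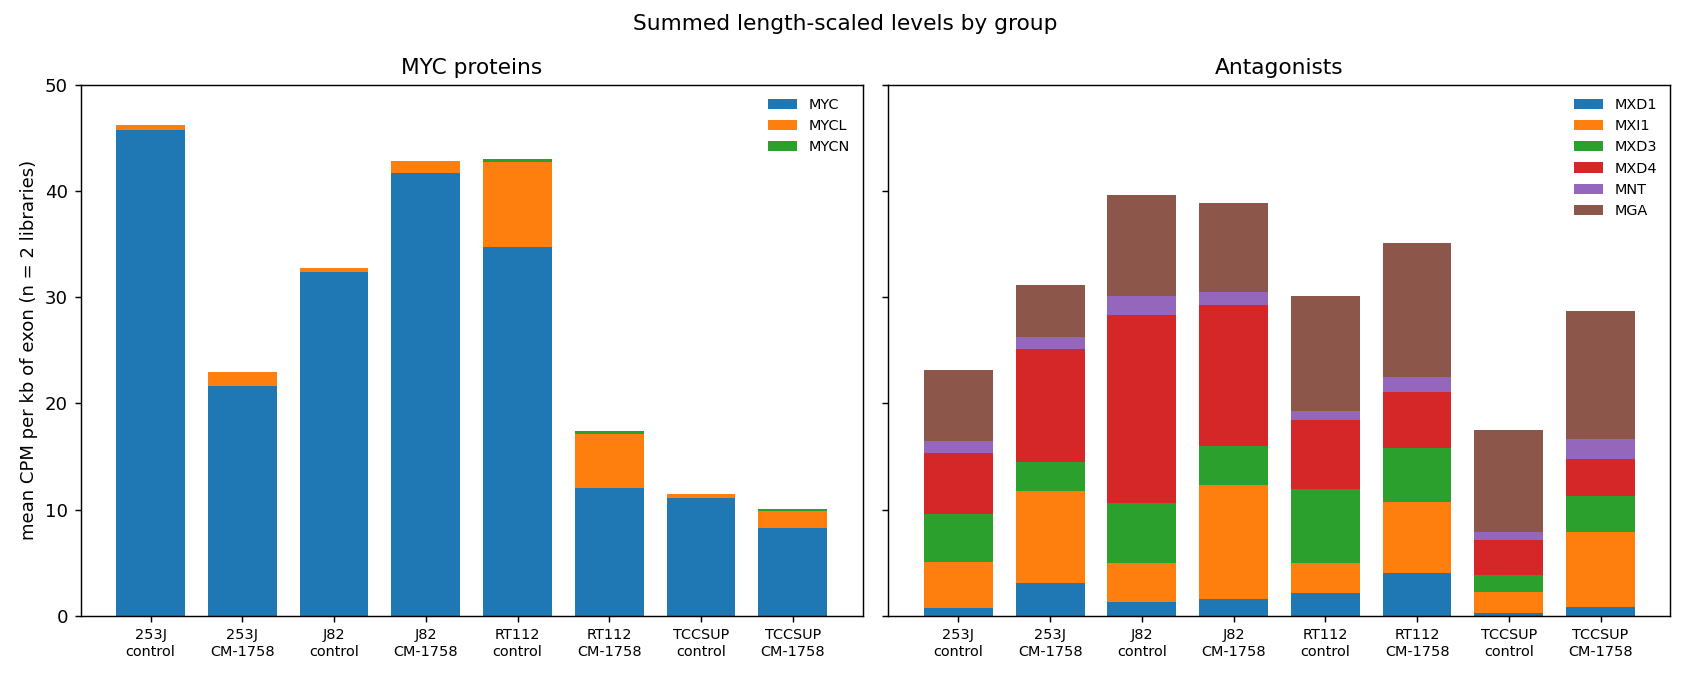
Mean CPM per kb of exon (vertical axis from 0, n = 2) summed over the transcripts of MYC, MYCL and MYCN (left, titled MYC proteins) and of the 6 antagonists (right) in each group. The MYC transcript sum goes from 46.3 to 23.0 in 253J and from 43.0 to 17.4 in RT112, and the antagonist sum from 17.5 to 28.7 in TCCSUP.

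The summed level of MYC, MYCL and MYCN was 46.3 ± 2.98 CPM per kb in control 253J and 23.0 ± 3.59 with CM-1758, 43.0 ± 1.598 and 17.4 ± 0.0612 in RT112, 32.7 ± 1.64 and 42.9 ± 7.13 in J82, and 11.5 ± 2.25 and 10.1 ± 1.72 in TCCSUP. This MYC transcript sum is one of RNA, since no protein was measured in these data. MYC made up 80.9% to 98.9% of this sum in control cells. The share of MYCL went from 18.6% ± 0.508 to 28.8% ± 0.199 in RT112 and from 3.85% ± 0.262 to 15.2% ± 0.397 in TCCSUP, and from 1.03% ± 0.199 to 5.56% ± 1.48 in 253J. With CM-1758, MYCL took up more of the sum in every line although its own direction split.

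Ratios between members of one library do not depend on the scaling of that library. MXI1 had 0.114 and 0.14 counts per MYC count in control 253J and 0.487 and 0.599 with CM-1758. The ratio went from 0.133 and 0.176 to 0.322 and 0.37 in J82, and from 0.138 and 0.0848 to 0.765 and 0.728 in RT112. TCCSUP had 0.252 and 0.229 in control and 0.933 and 1.42 with CM-1758. The treated libraries thus held more MXI1 per MYC count than the control libraries in each line, J82 included, where MYC itself was not lower.

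Summed per kb, MXD1, MXI1, MXD3 and MXD4 transcripts amounted to 0.333 ± 0.0385 of the MYC transcript sum in control 253J and to 1.10 ± 0.0931 with CM-1758. In RT112 this ratio went from 0.428 ± 0.0697 to 1.21 ± 0.0875, and in TCCSUP from 0.632 ± 0.107 to 1.49 ± 0.346. J82 was the exception, with 0.868 ± 0.159 in control and 0.681 ± 0.00879 with CM-1758. Its 2 treated libraries (0.675 and 0.688) lay below its control libraries (0.756 and 0.981), whereas in the other 3 lines the treated libraries lay above.

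The MYC transcript sum over the MAX transcript level, the remaining ratio, went from 11.1 ± 1.44 to 1.92 ± 0.273 in 253J. It went from 8.89 ± 0.108 to 1.98 ± 0.0803 in RT112 and from 2.17 ± 0.352 to 1.22 ± 0.269 in TCCSUP, without overlap. In J82 the ratio was 4.54 ± 0.163 in control and 4.43 ± 0.140 with CM-1758, and its libraries overlapped. With 2 libraries against 2, an exact permutation test of a single ratio cannot go below p = 0.333, so the ratios are given as a description.

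**Figure D4:**
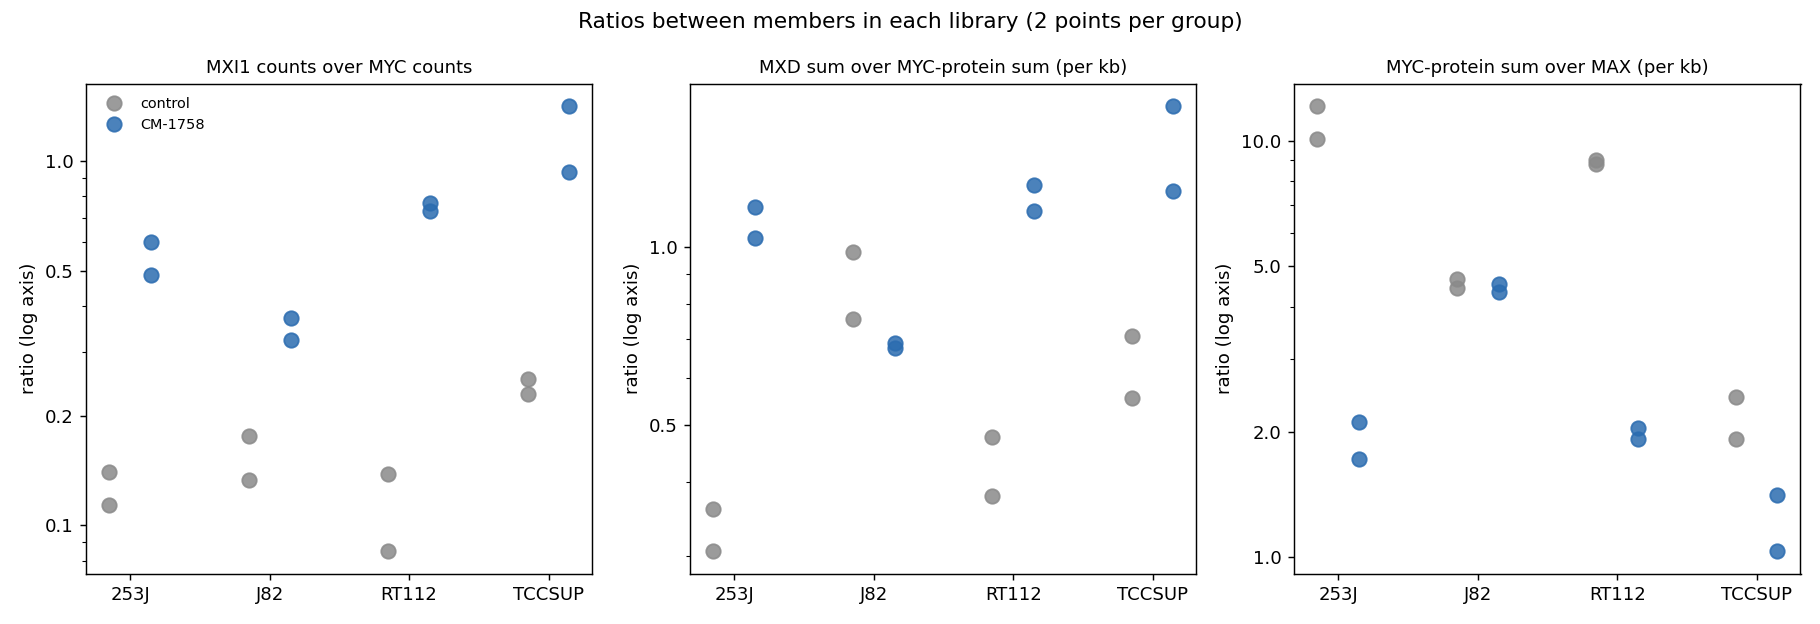
RNA ratios in each library (log axes, grey control, blue CM-1758, 2 points a group): MXI1 counts over MYC counts, the MXD sum over the MYC transcript sum (labelled MYC-protein sum), and the MYC transcript sum over MAX, the latter pair per kb of exon. In 253J, RT112 and TCCSUP the groups are apart in each panel, while in J82 only the MXI1 over MYC ratio moves as in the other lines.

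Likeness across libraries was described by Pearson's r of log2 CPM over the 16 libraries, which share 4 cell lines and 2 treatments, among 14201 other genes. MYC was most like WDR83OS (r = 0.94) and UBE2E1 (0.94), and MYCL most like ATP2C2 (0.97) and IGF2 (0.97). For MAX the nearest genes were STX7 (0.97) and FAM89B (0.95), and for MXI1 CAMK2N2 (0.97) and GNB1L (0.95). MXD1 was nearest to DGKQ (0.93) and C2orf15 (0.91), MXD3 to ACSF3 (0.93) and DSC2 (0.92), and MXD4 to NOL7 and PRPF31 (0.94 each). MGA was nearest to CHTF18 and ZNF687 (0.93 each) and MYCN to GLB1L2 (0.95) and KIAA1217 (0.88). MNT had no gene above 0.83, the value for BCL9 and ZNF438. Among the members themselves, MYCN and MYCL (0.82) and MAX and MXI1 (0.79) were the most alike. MYCN was near the limit of detection in most libraries, so its values of r rest on few counts.

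Lists of network targets and partners are read against the share of all tested genes called, 28.8% higher and 22.4% lower for 253J, 24% and 18.5% for J82, 27.4% and 20.2% for RT112, and 32% and 22.1% for TCCSUP. Of 39 genes that MYC is known to activate, all tested, 28 fell and 2 rose in 253J, 21 fell and 2 rose in J82, 27 fell and 2 rose in RT112, and 15 fell and 7 rose in TCCSUP, with median log2 fold changes of -0.72, -0.44, -0.92 and -0.32. Library size alone changed the TCCSUP split to 9 lower and 17 higher (median -0.01) and the J82 split to 17 lower and 4 higher, with 23 lower and 4 higher left in 253J and 25 and 2 in RT112. NPM1, CAD, CDK4, SRM, HSPE1, DKC1, SLC3A2, SHMT2, GART, CTPS1 and UTP20, 11 of the 39, fell in all 4 lines, as did 6.01% of all tested genes. NPM1, a nucleolar chaperone, had log2 fold changes of -1.45, -1.06, -1.12 and -0.55 in 253J, J82, RT112 and TCCSUP (edgeR adjusted p from 5.62e-05 to 0.0405). ODC1, the first enzyme of polyamine synthesis, went against the list and rose in all 4 lines, from 55.5 to 204 CPM in RT112 (log2 fold change 1.88, SE 0.28) and from 164 to 845 CPM in TCCSUP (2.36, SE 0.28). Cyclin gene CCND2 fell in 253J (log2 fold change -0.99) and rose from no count in control in J82, RT112 and TCCSUP, by at least 34.6-fold, 29.4-fold and 11.0-fold at 3 counts per library. In J82, 21 of these genes were thus lower while MYC itself had no lower call.

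**Figure D5:**
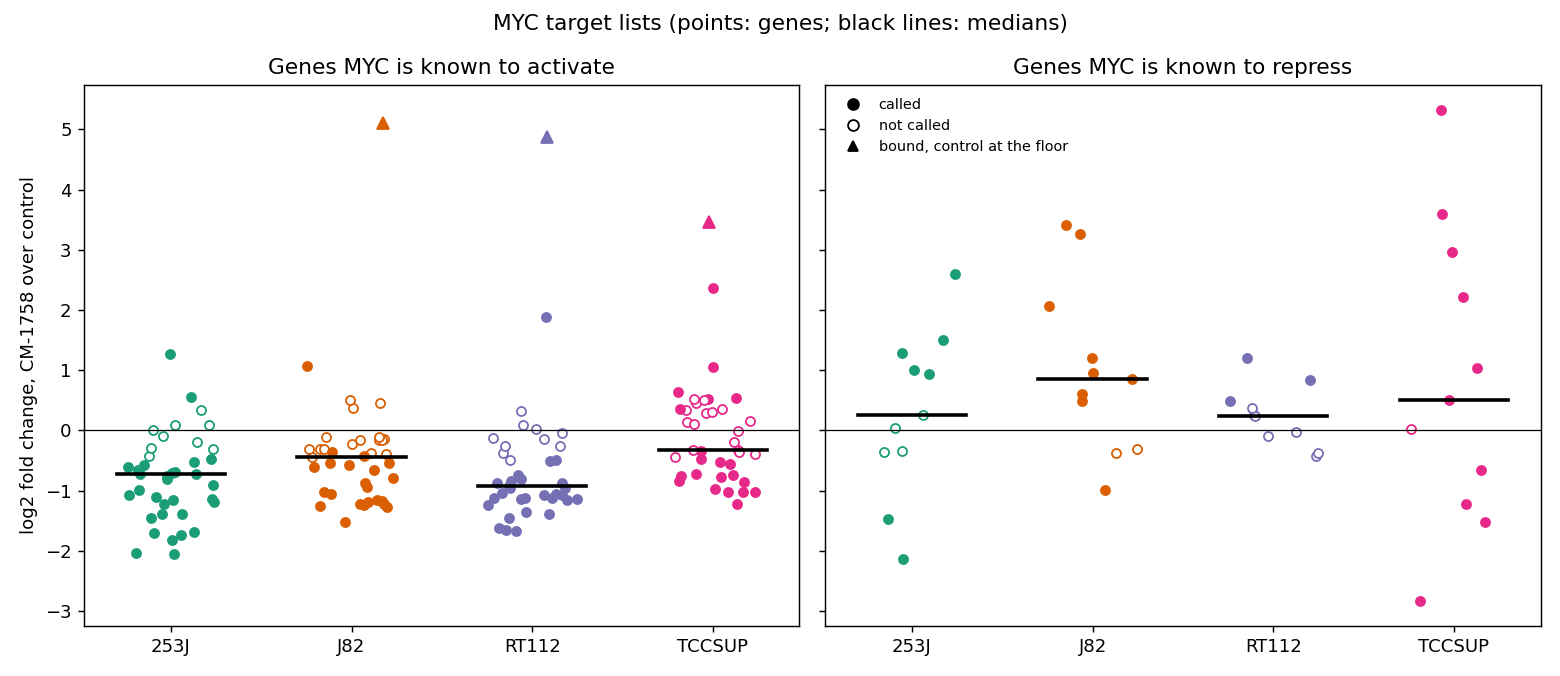
Log2 fold change of CM-1758 over control (vertical axis) for genes MYC is known to activate (left) and to repress (right) in each line; filled points were called, open points were not, triangles are bounds for CCND2, which had no count in control, and black lines are medians. The left medians lie below 0 in each line and the right medians above.

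Of 11 genes that MYC is known to repress, 5 rose and 2 fell in 253J, 8 rose and 1 fell in J82, 3 rose and 0 fell in RT112 (1 at an unadjusted p under 0.05, edgeR), and 6 rose and 4 fell in TCCSUP, where 32% of all tested genes rose and 22.1% fell. CDKN1A, which encodes the cell cycle inhibitor p21, rose in 253J (log2 fold change 1.29), J82 (3.41) and TCCSUP (2.21) and had 0.26 in RT112 (edgeR adjusted p = 0.411). HBP1, another inhibitor of proliferation, rose in all 4 lines, by 0.49 to 0.94. CEBPA, a factor of differentiation, rose in J82 (3.26) and TCCSUP (5.33) and was not called in 253J (-0.33) or RT112 (-0.09). CDKN1B, which encodes p27, fell in 253J (-1.47) and TCCSUP (-0.65). THBS1, an inhibitor of angiogenesis, fell in 253J (-2.14) and TCCSUP (-2.83), rose in J82 (1.20) and had 0.38 in RT112 (edgeR adjusted p = 0.279).

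MLX and its partners form the parallel arm of the network, since MXD1, MXD4 and MNT can also pair with MLX. MLX rose in 253J (log2 fold change 0.56, edgeR adjusted p = 0.00138) and fell in J82 (-0.57, adjusted p = 0.00175), lines where MXD4 had log2 fold changes of 0.89 and -0.41. MLXIPL, the glucose-responsive factor ChREBP, rose in J82, RT112 and TCCSUP, from 0.253 to 4.36 CPM in the last (log2 fold change 4.08, SE 0.66), and MLXIP rose in J82 (0.81).

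For PRC1.6, the complex of MGA and MAX, 3 of 10 subunit genes rose and 5 fell in 253J, 1 and 6 in J82, 3 and 4 in RT112 and 3 and 2 in TCCSUP; the J82 split was 3 and 4 with library size alone and 2 and 4 with RLE. L3MBTL2 and TFDP1 fell in all 4 lines, L3MBTL2 with log2 fold changes of -1.29 to -1.20. Of 14 tested germline genes that the complex is known to silence, 6 rose and 0 fell in 253J by edgeR (7 and 0 at an unadjusted p under 0.05). The counts were 1 higher and 1 lower in J82 (2 and 1 under the other scalings), 7 and 1 in RT112 and 10 and 1 in TCCSUP, while 24%, 27.4% and 32% of all tested genes were higher in these lines and 28.8% in 253J. Genes at 3 counts or fewer in 1 group were set to their bound, and those at 3 or fewer in both groups to 0. The median log2 fold change was then 1.26, 0.00, 1.07 and 1.97 in 253J, J82, RT112 and TCCSUP. In J82, DAZL, DDX4, MAEL, SYCP1, TDRD1 and TEX101 were set to 0, so its median is not a measured lack of change. TDRKH rose in all 4 lines, by 0.93 to 2.10 on the log2 scale, while the group means of the others stayed at or below 4.84 CPM. An example is DDX4, which went from 0 to 1.19 CPM in TCCSUP, at least 10.2-fold higher. Some of these genes passed the filter on low counts only through treated libraries. They include DDX4, MAEL, SYCP1 and TDRD1, with control group means of at most 0.034, 0.195, 0 and 0 CPM. For such genes the filter itself favoured a higher call, so the counts of higher germline genes are given as a description.

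Of 15 genes of the SIN3 and HDAC complexes that MXD proteins recruit, 6 rose and 2 fell in 253J, 1 and 2 in J82, 3 and 3 in RT112 and 4 and 2 in TCCSUP, where 32% of all tested genes rose and 22.1% fell; ING1 rose and RBBP4 fell in all 4 lines. Library size alone turned these into 9 and 1, 5 and 1, 5 and 2, and 6 and 0, and RLE gave 4 and 1 in J82 and 5 and 2 in RT112. Of 15 MYC cofactors, 1 rose and 5 fell in 253J, 0 and 5 in J82 (by edgeR, also at an unadjusted p under 0.05), 3 and 4 in RT112 and 2 and 3 in TCCSUP, with the acetyltransferase KAT2A and the SWI/SNF subunit SMARCB1 lower in all 4. These splits became 3 and 3, 1 and 5, 5 and 3, and 4 and 2 with library size alone, and with RLE 2 and 4 in 253J and 3 and 3 in TCCSUP.

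Of 12 genes that control MYC protein turnover, 2 rose and 5 fell in 253J, 3 and 5 in J82, 2 and 2 in RT112 and 1 and 4 in TCCSUP. CIP2A, an inhibitor of the phosphatase that destabilizes MYC, fell in all 4 lines, from 149 to 22.5 CPM in 253J (log2 fold change -2.73, SE 0.20). GSK3B, the kinase that marks MYC for degradation, rose in 253J (0.89), J82 (1.29) and RT112 (1.21). SKP2, also on the degrading side, fell in 253J (-0.78), RT112 (-1.38) and TCCSUP (-0.69) and was not called in J82 (-0.37). The genes named thus do not share 1 direction for MYC turnover. Library size alone gave 4 and 4 in J82 and 5 and 4 in TCCSUP, and RLE 2 and 4 in TCCSUP. Of 11 other factors that bind E-boxes, 3 rose and 5 fell in 253J, 3 and 6 in J82, 1 and 4 in RT112 and 1 and 6 in TCCSUP, with 4 and 4 in J82 under both other scalings and 2 and 3 in TCCSUP under library size alone. USF1 and USF2 were lower in all 4 lines, and TFAP4, a MYC target that also binds E-boxes, fell in 253J (-2.60), J82 (-1.46) and RT112 (-2.43) and had -0.66 in TCCSUP (edgeR adjusted p = 0.0647).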

How the data were processed

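Total RNA was depleted of ribosomal RNA, made into stranded libraries and sequenced. The authors deposited whole-number read counts per gene symbol for the 16 libraries, and all columns were used (0 left out). The submitters' processing notes name HISAT2, StringTie and the build GRCh37, while the annotation, the counting tool and its strand setting are not given in the sources used here, so reads of overlapping or antisense genes may be mixed. Libraries were grouped by the labelled cell line and treatment.

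From the deposited counts, 21297 genes passed filterByExpr. edgeR 4.0.16 (R 4.3.3, limma 3.58.1) fitted 1 quasi-likelihood model over the 8 groups with TMM scaling, leaving 8 residual degrees of freedom, and tested CM-1758 against control in each line, the difference of that effect between lines, and control levels between the 6 pairs of lines. P-values were adjusted by Benjamini-Hochberg over all tested genes, and calls need an adjusted p under 0.05. They rest on the spread between the 2 libraries of a group, pooled over the 8 groups of that model and moderated across genes. Read counts of the 2 libraries differed most in J82, with a chi-square per degree of freedom of 67.1 (control) and 46.1 (treated). The other groups had 10.9 to 20.6, while Pearson's r of log2 CPM was 0.983 to 0.991 over all groups. Whether the pooled spread is too small for J82 was not tested. Folds against a group without counts are bounds at 3 counts per library. Likeness used log2 CPM with a prior count of 2. Exon lengths came from GENCODE v29 basic (GRCh38), and promoter windows and their coordinates from RefSeq on GRCh38.p14, a build other than that of the counts. Totals of 22506431 to 32537104 counts set the precision, and bounds cover counting error only.

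Named were all 10 members, the 2 genes with the highest Pearson correlation with each member among genes with a mean log2 CPM above 0, and, from the lists, genes whose role is explained; the rule also allowed the top 2 and bottom 2 of a list by mean log2 fold change over the lines, of which some are named. Members and gene lists were chosen with earlier results of these data known. Genes named because they were called in all 4 lines were chosen after their values were seen. In simulated data with the spread of the model, 200 genes above a minimum level were changed 2-fold in J82 alone. Of these, 177 were recovered among 19506 genes, with 17 other calls in J82. This recovery does not carry over to MYCN, near the floor, or to data in which 42.5% of all tested genes were called, as in J82. The simulated spread was the pooled one, while the real J82 libraries differed more than those of other groups. The recovery may therefore be too high for J82. Alternatives were RLE scaling, library size alone, a minimum of 10 counts in every library, a replicate block, each line alone, DESeq2 1.42.0, a log2 fold change over 2 either way with an adjusted p under 0.01, and leaving out each library.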

Additional observations from a re-analysis of the deposited data

Results flagged for a closer look

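The effect of CM-1758 differed between the 4 cell lines for 8 of the 10 members by the edgeR interaction test, where 51.9% of all tested genes did. The adjusted p was 9.03e-05 for MYC, which was lower in 253J and RT112, and 1.17e-05 for MYCL, which was lower in RT112 and higher in the other lines. It was 0.00108 for MAX and 0.00611 for MXD1, both with the largest increase in 253J. MXD3 (0.000301) was higher in TCCSUP and lower in 253J and J82, and MXD4 (0.00683) was called in 253J. MNT had 0.0228, with a call in TCCSUP, and MGA 0.0128, with a call in 253J.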

How the results depend on the processing

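Of 352 values of a member in a line under other settings, 322 kept their direction and side of the threshold, 9 lost the call, 17 gained one and 4 turned sign. All 4 were MNT in 253J, with log2 fold changes of 0.013 (RLE), 0.24 (library size alone), 0.050 (10 counts in every library) and 0.013 (DESeq2 with all lines). Requiring a log2 fold change over 2 and an adjusted p under 0.01 left 1 call each in 253J and TCCSUP and 0 in J82 and RT112. J82 had 2 calls with that line alone in edgeR and 2 in DESeq2, with MAX and MXD3 lost in both. Fits of a single line used fewer libraries in every line, yet they gained MNT in RT112 and MGA in TCCSUP by both tools. In edgeR they also gained MYC in TCCSUP. Leaving out 1 library, with the lone library of a group assumed to vary like the other groups, gave 7 to 8 calls in 253J, 2 to 4 in J82 (2 without treated replicate 3), 4 to 6 in RT112, 6 to 8 in TCCSUP, 7 to 9 members whose effect differed between lines, and 30 to 37 control pairs. The sign turned within these ranges of log2 fold change: MNT in 253J (-0.085 to 0.022) and J82 (-0.98 to 0.15), MYCN in 253J (-0.12 to 5.38) and RT112 (-0.13 to 0.66), MXD4 in RT112 (-0.58 to 0.016) and TCCSUP (-0.057 to 0.16). DESeq2 moved the fitted MYCN change in TCCSUP, which depends on the prior count, by 1.52 to 1.56-fold. Same-numbered libraries deviated together with correlations of 0.0529 (253J), 0.218 (J82), 0.0427 (RT112) and 0.0173 (TCCSUP) and were not taken as pairs. The replicate block gave 8 calls in TCCSUP, 6 in both 253J and RT112, and 5 in J82: MXD3 (adjusted p = 0.0657 by edgeR) and MGA (0.196) were lost in 253J, and MXD4 in J82 (0.0152), MNT in RT112 (0.0122) and MGA in TCCSUP (0.0159) were gained. The cause of these moves was not tested.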
